A study of Oryza sativa with 6 samples.

Results

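Nontransgenic rice leaves after 3 h in NaCl were compared with leaves of the same line before treatment, as the difference between 2 Affymetrix rice arrays. All rice probe sets were taken, 57258 of the 57381 rows of the table, and only the 123 control probe sets were left out. No measured value entered that choice. The lectin gene salT, the isocitrate lyase gene ICL, RAB16 dehydrin genes and the homeobox gene HOX24 stood far higher at 3 h. The expansin genes EXPB3 and EXPB4, the cytokinin response regulator genes RR9 and RR2 and the glutaredoxin gene GRXC15 stood lower.

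Both groups were Zhonghua 11, a japonica rice cultivar, without a transgene. The 3 h group had been moved at 2 weeks of age into dishes of half-strength Murashige and Skoog medium with 200 mM NaCl, and the other group was sampled in normal conditions. RNA came from leaf tissue of 10 plants per array. The study's other arrays held the same line at 20 min in NaCl and seedlings carrying a construct antisense to OsPDCD5, whose name refers to programmed cell death, before treatment and at 20 min and 3 h.

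Each of the 6 groups was 1 array, so no difference below has a replicate, an error or a test, and the number of arrays limits the precision of every value. No group was moved without NaCl or sampled untreated at the later time. Salt, the transfer itself and the elapsed hours therefore cannot be told apart. In pooled leaf RNA, fewer cells of a type and less RNA per cell cannot be told apart either.

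As background, salt in the medium makes water harder to take up and brings sodium into the shoot, and plants answer in part through the hormone abscisic acid. When the hormone binds its receptors, protein phosphatases of type 2C (PP2C) are inhibited and SnRK2 kinases are released to activate bZIP transcription factors of the ABF class. Among the genes these factors act on are those of dehydrins and other late embryogenesis abundant (LEA) proteins, which protect cells that lose water.

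Values are MAS5 signals, a summary of each probe set's brightness that the authors deposited on the log2 scale. Differences are log2(signal + 16) at 3 h minus before, and a probe set counted as higher or lower at a difference of at least 1 in size, which is 2-fold on that scale. The added 16 shrinks differences of dim probe sets. The 2% trimmed mean of the linear signal was 500.1 on each of the 6 arrays. At the dim end the arrays differed. Signals below 16 made up 32.9% of rice probe sets on the 3 h array and 37.7% on the array from before treatment, and the signal sat at its lowest value of 1 for 949 probe sets at 3 h and 1849 before. The median log2 signal was 5.28 at 3 h and 4.94 before.

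Of the 57258 probe sets, 5050 (8.82%) were at least 2-fold higher at 3 h and 2444 (4.27%) at least 2-fold lower. Higher probe sets thus made up 67.4% of those past 2-fold. After quantile normalization of the 6 arrays the numbers were 3740 higher and 3526 lower, a share of 51.5%. With equal 75th percentiles the share was 65.0%, and with scaling to the spike-in probe sets 65.2%. The excess of higher over lower probe sets was thus smaller after quantile normalization. The median difference was 0.06, the central 95% of probe sets lay between -1.18 and 1.50, and the extremes were -4.58 and 6.26. At 4-fold or more, 340 probe sets were higher and 106 lower, and at 8-fold or more 46 were higher and 10 lower.

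**Figure D1:**
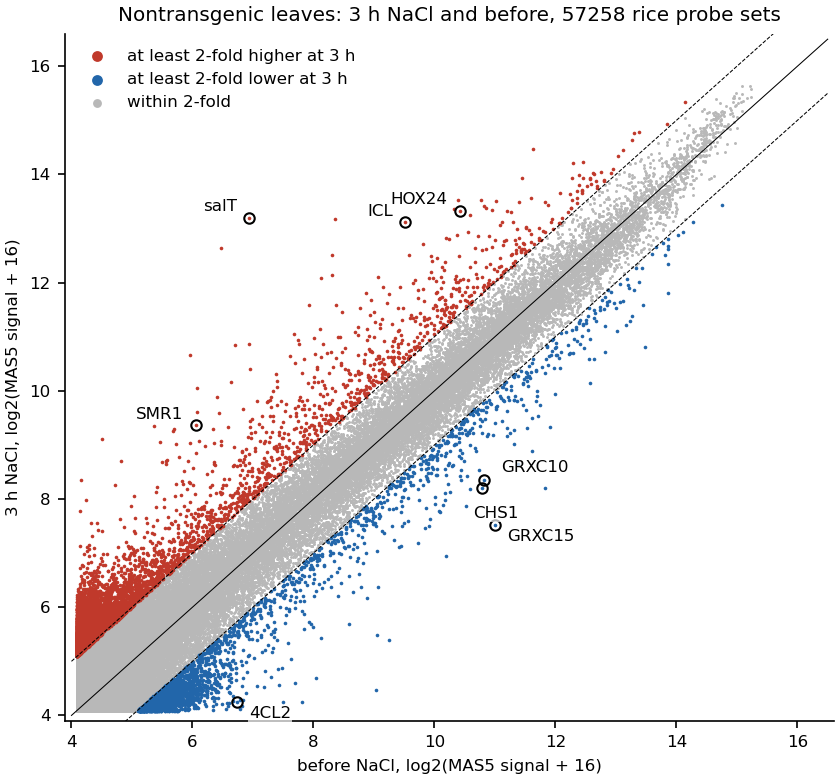
Log2(MAS5 signal + 16) of each of the 57258 rice probe sets at 3 h in NaCl (vertical axis) and before (horizontal axis) in nontransgenic leaves, 1 array each. The solid line marks equal signals and the dashed lines 2-fold differences, and circles mark named genes. Points at least 2-fold away crowd at low signals, while salT, ICL and SMR1 stand well above the band and GRXC15 well below it.

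Most differences past 2-fold were those of dim probe sets. With probe sets split by mean signal into 5 bands of equal size, 15.8% were higher and 6.24% lower in the band next to the dimmest. In the brightest band 3.50% were higher and 2.44% lower. Among the 28629 probe sets at or above the median of the mean over the 6 arrays, 1772 (6.19%) were higher and 1081 (3.78%) lower. Genes named below come mostly from that brighter part. Of 22 named genes past 2-fold with several probe sets, 14 had another probe set that was not past 2-fold the same way, and the text gives that value for those it describes.

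**Figure D2:**
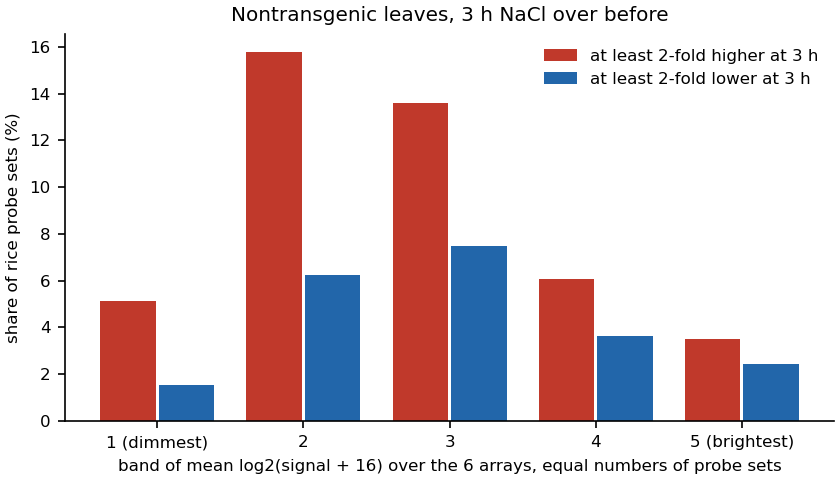
Share of rice probe sets, in percent, that were at least 2-fold higher (red) or lower (blue) at 3 h in NaCl than before in nontransgenic leaves, in 5 bands of the mean log2(signal + 16) over the 6 arrays that hold equal numbers of probe sets. The share was highest in bands 2 and 3, where 15.8% and 13.6% were higher.

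The platform annotation gave 1 gene for 22436 probe sets, of 17905 genes, and 2459 of these had a curated name. With the probe set of highest mean signal standing for each gene, 1203 genes (6.72%) were higher and 660 (3.69%) lower, with a median difference of 0.01. Among named genes 190 (7.73%) were higher and 97 (3.94%) lower. These shares are what the counts of the gene lists below can be read against.

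The largest difference of any probe set was that of salT (LOC4326471), a mannose-binding lectin gene found through its response to salt. Its signal was 9396 at 3 h and 107 before, a difference of 6.26, and its other probe set gave 6.17. R40C1 (LOC4332715), another gene with lectin-like repeats, had 1945 at 3 h and 459 before (2.05). At 20 min, with the same array as baseline, salT stood at 85.3, no higher than before, and R40C1 at 677.

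Dehydrin and LEA genes were mostly higher at 3 h. Of 8 genes, 7 were at least 2-fold higher at 3 h and none lower, and the median difference was 1.71. RAB16C (LOC4350452) had a signal of 2943 at 3 h and 421 before (2.76), and RAB16B (LOC4350453) had 7254 at 3 h and 1148 before (2.64). At 20 min RAB16C stood at 151 and RAB16B at 740.1, both below their signals before treatment. RAB21 was the brightest member, with 20720.3 at 3 h and 8414 before (1.30). RAB16D, the dimmest of the family, had 255 at 3 h and 82.3 before (1.46).

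These 4 dehydrin genes are near neighbours. In the RefSeq annotation RAB16D and RAB16C lie next to each other, as do RAB16B and RAB21, with 2 other annotated genes between the pairs. Sequence shared among such copies can let a probe set bind more than 1 of them. The LEA genes Emp1 and LEA3 lay elsewhere in the list's range. Emp1, of the group first described in embryos, had 5583 at 3 h and 1040.3 before (2.41), and LEA3 had 12091 at 3 h and 3089 before (1.96). Dhn1 gave 1.06 on its brightest probe set but as little as 0.03 on another of its 3. The 8th member, rab25, stood at 307 at 3 h and 301 before (0.03).

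Of the 4 listed genes of abscisic acid synthesis, breakdown and reception, 1 was at least 2-fold higher and none lower. ABA1 (LOC4335984), which encodes zeaxanthin epoxidase of abscisic acid synthesis, had a signal of 5819.6 at 3 h and 2451 before (1.24). The breakdown genes ABA8OX2 and ABA8OX1 stood at 0.63 and 0.48, within 2-fold. ABA8OX1 had 661 before, 10325 at 20 min and 927 at 3 h. The receptor gene PYL11 stood at 0.34.

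Of 55 PP2C genes, 9 were higher at 3 h and none lower, while the list's median was 0.05, so the difference lay in a minority of the family. PP2C30 (LOC4332374) had 2168 at 3 h and 397 before (2.40). PP2C59 had 2389 at 3 h and 533 before (2.13), and PP2C51, a dimmer gene, 101 at 3 h and 20.4 before (1.68), with 0.47 on its other probe set. PP2C11, PP2C27, PP2C06, PP2C68 and PP2C08 followed between 1.02 and 1.44. The ninth was PP2C33, below the median signal, with 72.9 at 3 h and 5.91 before.

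Among 12 SnRK2 kinase and ABF factor genes, 3 were higher and none lower, with a median of 0.37. The kinase gene SAPK6 had a signal of 2809 at 3 h and 1190.3 before (1.23), and SAPK7 stood at 1.18. BZIP23, a bZIP factor of the ABF class, had 10102 at 3 h and 4713 before (1.10).

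HOX24 (LOC4330155), a homeodomain-leucine zipper factor gene, was higher at 3 h. Its signal was 10293 at 3 h and 1350.0 before, a difference of 2.92. A list of 25 HOX genes, added after these values were seen, held 3 higher genes and none lower, with a median of -0.18. The others were HOX12, with 353 at 3 h and 64.2 before (2.20), and hox29, with 92.4 at 3 h and 18.3 before (1.66). The remaining 22 lay between -0.80 and 0.54.

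Short lists of other transcription factors known from stress, holding only genes with a curated name, were counted as well. Among all named genes 7.73% were higher and 3.94% lower, so lists this short could hold few or no members past 2-fold. Of 11 DREB and ERF genes, which include the DREB1 activators of cold, drought and salt genes, none was higher and 1 lower, with a median of -0.33. DREB1G had a signal of 110.0 before, 3965 at 20 min and 54.9 at 3 h, and DREB1B had 373 before, 1091 at 20 min and 165 at 3 h. DREB1B was the lower gene (-1.10). None of 8 NAC and none of 6 WRKY genes passed 2-fold, with medians of 0.24 and 0.43. WRKY71, a repressor in hormone signalling of the seed, had 2276 before, 11176 at 20 min and 3358 at 3 h.

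Heat shock factors and heat shock proteins, which guard protein folding, had 5 of 45 genes higher and 1 lower, with a median of 0.05. HSFA3 (LOC4329526) had 588 at 3 h and 132 before (2.03). The small heat shock protein gene HSP17.9A had 7984 at 3 h and 3002 before (1.41). HSFB2B (1.25), the chaperone gene CLPB3 (1.21) and the dim HSP17.8 (1.61) made up the rest, and HSFC1A was the lower gene (-1.13). The 2 probe sets of HSFB2B disagreed, the other giving -0.19.

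Calcium signalling genes, the sensors and kinases that read calcium pulses, had 9 of 77 genes higher and 3 lower, with a median of -0.06. CIPK10 (LOC4332786), a kinase of calcineurin B-like sensors, had 626 at 3 h and 161 before (1.86), with 0.54 on the lowest of its 4 probe sets. CML11 stood at 1.39 and CIPK16 at 1.35. CIPK21 (LOC4344036) was lower, with 248 at 3 h and 696 before (-1.43), as was the calcium-dependent kinase gene CPK5 (-1.15).

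Aquaporins, the water channels of the plasma membrane (PIP) and the vacuole (TIP), had 6 of 25 genes higher and 1 lower, with a median of 0.08. PIP2;7 (LOC4347729) had a signal of 3335 at 3 h and 835 before (1.98), and at 20 min it stood at 5022. TIP1;2, a bright vacuolar channel gene, had 14132 at 3 h and 5855 before (1.27). TIP3;1, known from seeds, had 229.8 at 3 h and 46.2 before (1.98). PIP2;6, TIP4;1 and TIP4;2 stood between 1.05 and 1.28. The lower gene was Lsi6 (LOC4340558), a silicon channel of leaves and nodes, with 1749.9 at 3 h and 5691 before (-1.69).

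Of 28 sodium and potassium transport genes, 3 were higher and 1 lower, with a median of 0.32. The inward potassium channel gene AKT1 (LOC4326245) had 791 at 3 h and 323 before (1.25). The potassium transporter gene HAK22 was lower at -1.13 on its brighter probe set, while the other gave 0.35. The remaining higher genes, HAK13 and HAK20, were dim. HAK13 had 46.3 at 3 h and 3.42 before, and HAK20 had 26.5 at 3 h and 1.89 before.

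Osmolyte genes, whose products balance water loss, went both ways, with 1 of 13 higher, 4 lower and a median of 0.23. RINO1 (LOC4331917), which encodes inositol phosphate synthase, had a signal of 5161 at 3 h and 14912 before (-1.53). The trehalose-phosphate phosphatase genes TPP1, TPP7 and the dim TPP4 were lower, TPP1 with 171 at 3 h and 502 before (-1.47) and TPP7 at -1.35. The other probe set of TPP7 gave 0.53. TPP7 had been at 6943 at 20 min, above its level of 4103 before. P5CS2, of proline synthesis, was the higher gene at 1.17, but its 4 probe sets ranged from -2.01 to 1.17.

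Both listed genes of the glyoxylate cycle were higher. The cycle lets cells turn acetate units from fatty acids into sugars, and it rests on isocitrate lyase and malate synthase. ICL (LOC4343441) had a signal of 8907 at 3 h and 719 before, a difference of 3.60. MS had 7386 at 3 h and 1893 before (1.96). At 20 min both were below their signals before treatment, ICL at 269 and MS at 795.

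PPT2 (LOC4345334), named as a transporter of phosphoenolpyruvate into plastids, had 2689.8 at 3 h and 471 before (2.47). Of 34 sugar transport and starch breakdown genes, 6 were higher and 3 lower, with a median of 0.07. SUS4, of sucrose synthase, had 3613 at 3 h and 1438 before (1.32), the amylase gene AMYC2 stood at 1.53 and the sugar transporter gene SWEET16 at 1.24. SWEET15, below the median signal, had 237 at 3 h and 2.82 before (3.75), where its signal was below 16. SWEET14 was lower, with 156 at 3 h and 439.7 before (-1.41).

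**Figure D3:**
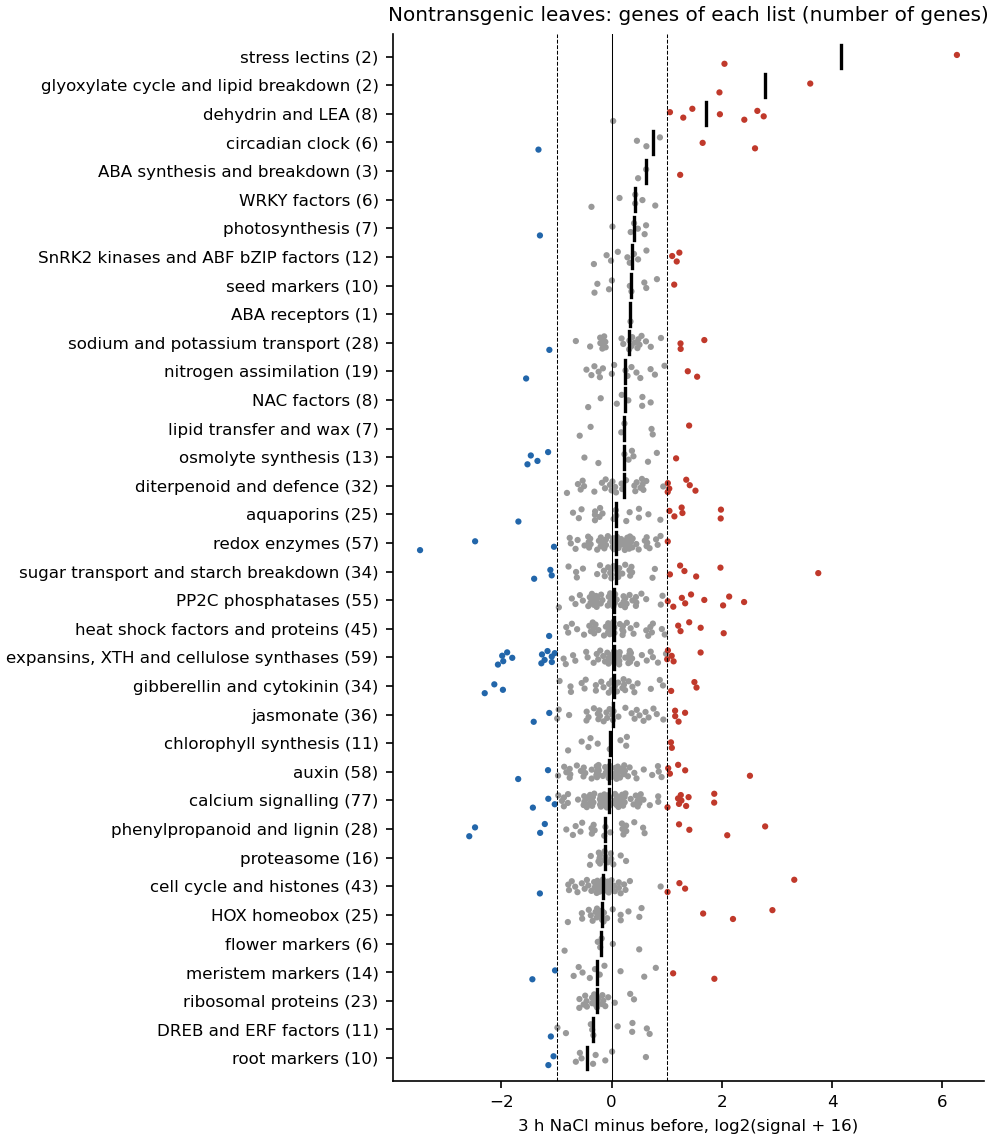
Difference in log2(signal + 16), 3 h in NaCl minus before in nontransgenic leaves, for the genes of 36 lists, 1 probe set a gene, with the number of genes in parentheses. Points are genes, red at least 2-fold higher and blue at least 2-fold lower, black bars are list medians, and dashed lines mark 2-fold. The dehydrin and LEA list, with a median of 1.71, lies almost wholly beyond 2-fold, while in larger lists only a few genes lie that far out.

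Several growth genes stood lower at 3 h. Of 59 genes for expansins, xyloglucan endotransglucosylases (XTH) and cellulose or related glucan synthases, which loosen or build the cell wall, 12 were lower and 5 higher. The median was 0.04 and the mean -0.15. EXPB3 (LOC4349349) had a signal of 1530.3 at 3 h and 6031 before (-1.97), and EXPB4 (LOC4349350) had 260.1 at 3 h and 1138 before (-2.06). EXPA2 (LOC4327568) had 245 at 3 h and 1019.8 before (-1.99).

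EXPB6, EXPB2, EXPB3 and EXPB4 follow one another without a gene between them in the RefSeq annotation. EXPB6 was lower too (-1.28), while EXPB2 stood at 0.32 with signals of 7.54 at 3 h and 2.86 before. XTH8 had 1336 before, 4546 at 20 min and 547 at 3 h, so that its 20 min signal was the highest of the line. The cellulose synthase genes CESA1 and CESA8 stood at -1.16 and -1.03. CSLF6, of mixed-linkage glucan synthesis, gave -1.80 on its brightest probe set and up to 1.40 on another of 3. It is counted among the 12 lower genes by its brightest probe set, and without it the number is 11. The higher members EXPA8, EXPA7 and EXPA5 had signals of 27.0 to 43.5 at 3 h and 3.44 to 11.0 before, near the added 16.

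Response regulators of type A damp the signal of the growth hormone cytokinin. Of 13 response regulator genes of all types, 2 were lower and none higher, 5 stood above 0 and the median was -0.05. RR9 (LOC4349747) had a signal of 263 at 3 h and 1205 before (-2.13), and RR2 (LOC4329677) had 164 at 3 h and 691 before (-1.97). LOGL10, of the family that frees active cytokinin, had 125 at 3 h and 679 before (-2.30). CKX4, which encodes a cytokinin oxidase that breaks the hormone down, was higher, with 848 at 3 h and 289 before (1.50), and so were CKX5 (1.08) and the gibberellin synthesis gene GA20OX3 (1.54). The list of 34 gibberellin and cytokinin genes thus had 3 higher and 3 lower, with a median of 0.03.

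Of 58 auxin genes, 5 were higher and 2 lower, with a median of -0.04. IAA13 (LOC4334069), a repressor of the auxin response, had 1567 at 3 h and 262 before (2.51). IAA8, of the same family, was lower, with 41.8 at 3 h and 171 before (-1.70) and -0.62 on its other probe set, as was the auxin carrier gene PIN5A (-1.16). The other 4 higher genes had signals below 34 at 3 h and below 8 before.

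SMR1 (LOC4349289), named for the SIAMESE-related inhibitors of cyclin-dependent kinases, had 644 at 3 h and 50.5 before (3.31). EL2, a cell cycle inhibitor gene first found through its response to an elicitor, had 5147 at 3 h and 2541 before (1.01), with 0.91 on its other probe set. The 43 cell cycle and histone genes held 4 higher and 1 lower, with a median of -0.16, and 13 of them stood above 0. ADF11 (LOC4352848), an actin-depolymerizing factor gene, was lower, with 2501 at 3 h and 9560.4 before (-1.93).

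GRXC15 (LOC4352426), of the CC-type glutaredoxins that interact with TGA transcription factors, had the lowest value of any named gene. Its signal was 168 at 3 h and 2035 before, a difference of -3.48, with 837 at 20 min. GRXC10 (LOC4351046), of the same type, had 310.1 at 3 h and 1800.2 before (-2.48). Of 57 redox enzyme genes 3 were lower, Trx20 being the third (-1.05), and GRXS5 was the 1 that was higher (1.02). The list's median was 0.07, and 35 of its genes stood above 0.

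Phenylpropanoid and lignin genes went both ways, with 4 of 28 higher, 4 lower and a median of -0.12. CHS1 (LOC4350636), of the chalcone synthase that opens flavonoid synthesis, gave 277 at 3 h and 1742 before on its brightest probe set (-2.58), and up to 0.39 on another of its 5. CAD3, of a cinnamyl alcohol dehydrogenase, had 5801 at 3 h and 14287 before (-1.30). 4CL2, of 4-coumarate ligase, had 3.09 at 3 h, below 16, and 90.4 before (-2.48). LAC24, a laccase gene, was higher, with 927 at 3 h and 205 before (4.28-fold on the scale with 16 added).

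Of 6 circadian clock genes, 2 were higher and 1 lower, with a median of 0.75. GI (LOC4325329), an evening gene, had a signal of 1796 before, 2900.0 at 20 min and 10970.2 at 3 h. LHY (LOC4344703), a morning gene, had 27660.1 before, 28459 at 20 min and 11007 at 3 h. The difference at 3 h was 2.60 for GI and -1.33 for LHY, and another probe set of LHY gave 0.62. PRR1 stood at 1.65 and PRR37 at 0.88. Since no seedlings were sampled untreated at the later time, the time of day and NaCl cannot be told apart for these or any other genes.

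The 20 largest higher and the 20 largest lower values were taken among named genes at or above the median signal. Other genes among the 20 higher ones were PXG (2.77), a peroxygenase gene, PHR3 (2.73), of the phosphate starvation response, and BURP2 (2.49). They also included the nuclease gene BBD1 (2.68), GER4 (2.55), ENODL18 (2.36), of an early nodulin-like protein, ILL8 (2.28), of an auxin conjugate hydrolase family, RNC1 (2.25) and MSL1 (2.28). PXG had 3855 at 3 h and 551 before, and PHR3 had 3279 at 3 h and 480.4 before. MSL1 was at 3.95 before, under the added 16, and its other probe set gave 0.92. Among the 20 largest lower values were also VIT2 (-1.88), a vacuolar iron transporter gene, STLP2 (-1.91), CAD8A (-1.67), MIF4 (-1.62), EXO1 (-2.21) and EXPB11 (-1.90). At 3 h EXO1 was at 5.24 and EXPB11 at 1.88, below 16. VIT2 had 208 before, 1812 at 20 min and 45.1 at 3 h, above its first signal at 20 min and below it at 3 h.

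**Figure D4:**
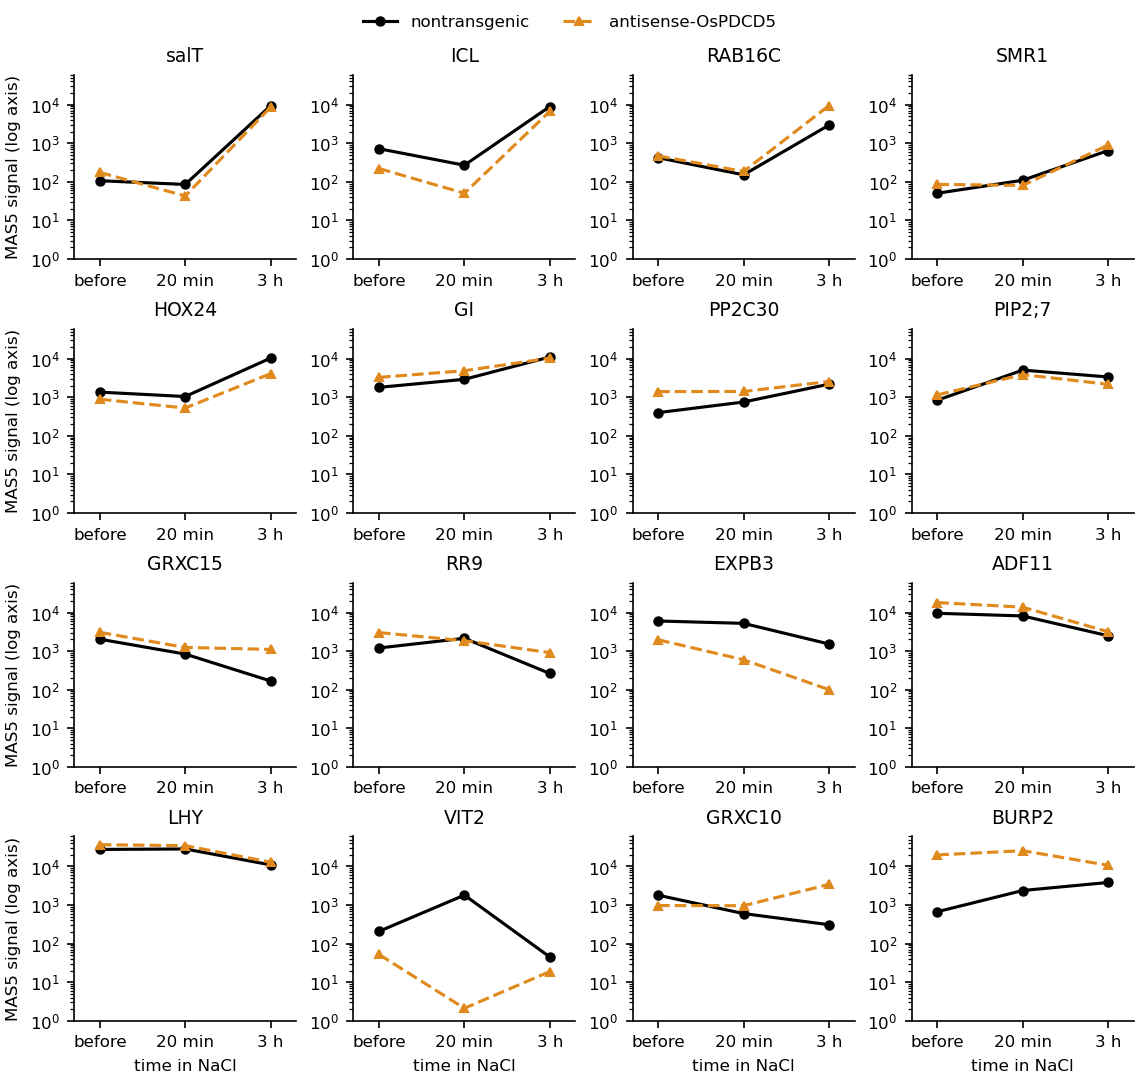
MAS5 signal on a log axis before treatment and at 20 min and 3 h in NaCl for 16 genes, in nontransgenic (black circles, solid) and antisense-OsPDCD5 leaves (orange triangles, dashed), 1 array per point. In nontransgenic leaves salT, ICL, RAB16C and HOX24 were no higher at 20 min than before and stood well above both at 3 h, while PIP2;7 and VIT2 were highest at 20 min.

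Most genes of photosynthesis and of basic protein turnover stayed within 2-fold, as did most of all named genes. The labelled tissue was checked with 7 photosynthesis genes, markers of green leaves, whose summed signal was 208342 at 3 h and 152662 before. Of these, 6 were bright and stood between 0.01 and 0.62 on their brightest probe sets. CAB2R gave 0.60 there and 1.09, past 2-fold, on its other probe set. RBCS, of the small subunit of Rubisco, gave 0.47 on its brightest probe set and as low as -1.34 on another of 4. The remaining gene, the dim RBCS1, was counted as lower (-1.30), with 1.68 at 3 h and 27.6 before. Chlorophyll synthesis had 2 of 11 genes higher and none lower, PORB with 4891 at 3 h and 2312 before (1.08) and the dim PORA (1.09). GluTR, of the first committed step, stood at -0.79.

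None of 23 ribosomal protein genes and none of 16 proteasome genes passed 2-fold. The median was -0.27 for ribosomal protein genes and -0.13 for proteasome genes, and 3 genes of each list stood above 0. Ribosomal protein genes ranged from -0.59 for RPL11 to 0.40 for CL18.

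Markers of other tissues were summed in the same way. The summed signal of 10 root marker genes was 11084 at 3 h and 13993 before, mostly that of NAAT1 (7795 at 3 h and 9541 before). Other root markers had clear signals too, NAS1 with 1424 at 3 h and 2133 before and Lsi1 with 537 at 3 h and 792 before. The xylem silicon exporter gene Lsi2 was at the dim end, with 1.09 at 3 h and 1 before. For 10 seed marker genes the sum was 7115 at 3 h, with 4 genes below 16, and 6149 before, with 6 below 16. Most of that sum was GLB, with 5454 at 3 h and 4251 before. The glutelin gene GLUA-1 was at the dim end, with 1.05 at 3 h and 1 before. Flower markers summed to 649.6 at 3 h and 572.4 before over 6 genes, mostly that of MADS16 (426 at 3 h and 297 before). The stamen gene MADS3, below the median signal, was at 1.95 at 3 h and 16.4 before. Over 14 genes listed as meristem markers the sum was 5939 at 3 h, with 8 genes below 16, and 7424 before, with 9 below 16. OSH45 alone had 4812 at 3 h and 5939 before, so the sum says little about the other genes. OSH1, which marks the shoot apex, was at 1.53 at 3 h and 12.3 before. Of single genes, 2 root markers were at least 2-fold lower and none higher (median -0.44, 2 above 0), 1 seed marker was higher and none lower, no flower marker passed 2-fold, and 2 meristem markers were higher and 2 lower. The sums of these 4 lists, some carried by 1 bright gene, differed between the 2 arrays by less than 2-fold, and their part in the differences above was not tested.

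Of the 28629 probe sets of the brighter part, 9.11% belonged to named genes, 53.3% to genes with an identifier only and 37.6% to no single gene. Of its 100 largest higher probe sets, 12 belonged to named genes, 67 to genes with an identifier only and 21 to no single gene. Of the 100 largest lower ones, 12 belonged to named genes, 52 to genes with an identifier only and 36 to no single gene. LOC4343443 had 9250.4 at 3 h and 313.2 before (4.82), and LOC4331206 had 1611 at 3 h and 46 before (4.71). LOC4330177 had 6.07 at 3 h and 510.4 before (-4.58), and LOC4342551 had 276.9 at 3 h and 3634 before (-3.64).

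The same difference in antisense-OsPDCD5 leaves shares no array with that in nontransgenic leaves, so the lines can be set side by side. In antisense leaves 3330 probe sets (5.82%) were at least 2-fold higher at 3 h and 4327 (7.56%) lower, a balance opposite to that of the nontransgenic line. Of the antisense arrays, the 3 h one had the larger share of signals below 16, 37.5% against 34.4% before. Over all probe sets 882 were higher in both lines, 17.5% of the nontransgenic and 26.5% of the antisense list, and 565 were lower in both, 23.1% of the nontransgenic and 13.1% of the antisense list. In the brighter part 6.25% were higher and 5.61% lower in antisense leaves. There 646 were higher in both lines, 36.5% of the nontransgenic and 36.1% of the antisense list, and 387 lower in both, 35.8% of the nontransgenic and 24.1% of the antisense list. The differences of the lines correlated at r = 0.23 (Spearman's rho 0.18) over all 57258 probe sets, 0.45 (0.38) over the brighter 28629 and 0.60 (0.52) over 2088 named genes. These points are genes of the same 4 arrays and are no independent replicates.

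Many of the largest nontransgenic values had the same direction in antisense leaves. Of the 100 largest higher probe sets of nontransgenic leaves in the brighter part, 85 were at least 2-fold higher in antisense leaves as well, and of the 100 largest lower ones 58 were lower. Of the largest 500 each way, 275 were higher and 209 lower in antisense leaves as well. SMR1 stood at 3.31 in nontransgenic and 3.17 in antisense leaves, PHR3 at 2.73 in nontransgenic and 2.65 in antisense leaves, and IAA13 at 2.51 in nontransgenic and 2.54 in antisense leaves. The dehydrin and LEA list had 7 of 8 genes higher in each line, with medians of 1.71 in nontransgenic and 1.92 in antisense leaves. Over all 2459 named genes, 6.34% were higher and 6.43% lower in antisense leaves.

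The named genes with the 5 largest gaps between the lines each way follow, LAC24 and GRXC10 among them. PBZ1 (LOC4352491), a pathogenesis-related gene, had a signal of 30779.6 at 3 h and 25688 before in nontransgenic leaves (0.26), and 319 at 3 h and 4494 before in antisense leaves (-3.75). The diterpenoid phytoalexin genes CPS2 and CYP71Z7 stood at -0.18 and 0.45 in nontransgenic leaves and at -4.14 and -3.32 in antisense leaves. Both were also far lower at 20 min in nontransgenic leaves. There CPS2 had 455 before, 5.17 at 20 min and 401 at 3 h, and CYP71Z7 had 4768, 700 and 6534. In antisense leaves CPS2 had 460 before, 146 at 20 min and 11.1 at 3 h, and CYP71Z7 had 616, 129 and 47.2. BURP2 had 3853 at 3 h and 673 before in nontransgenic leaves (2.49), and 10744 at 3 h and 19921 before in antisense leaves (-0.89), where its level was higher at every stage. RBTI, a trypsin inhibitor gene, stood at 0.56 in nontransgenic and 3.48 in antisense leaves. Its signal was 20151 at 3 h and 13654 before in nontransgenic leaves. In antisense leaves it was lower at both stages, with 4777 at 3 h and 414 before. HSFB2C stood at 0.63 in nontransgenic and 2.99 in antisense leaves, but at up to 1.48 in nontransgenic leaves on another of its 3 probe sets. The lipoxygenase gene CM-LOX1 stood at -0.99 in nontransgenic and 1.46 in antisense leaves, and RAB16D at 1.46 in nontransgenic and 3.80 in antisense leaves. CM-LOX1 had 1944 at 3 h and 3872 before in nontransgenic leaves, and 1593 at 3 h and 568 before in antisense leaves. With 1 array per group none of these differences between lines was tested.

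**Figure D5:**
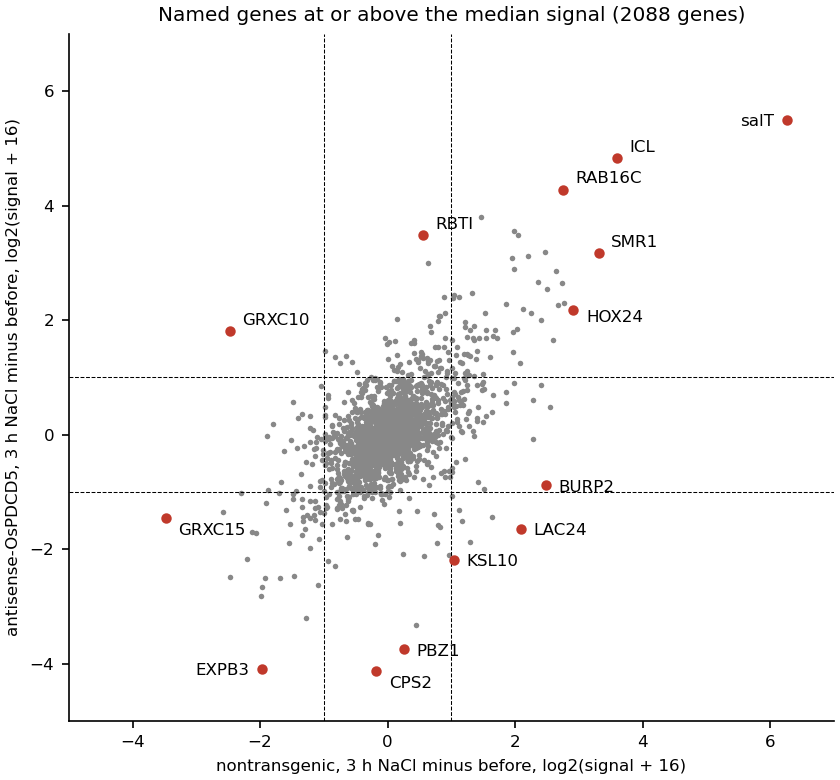
Difference in log2(signal + 16), 3 h in NaCl minus before, in nontransgenic (horizontal axis) and antisense-OsPDCD5 leaves (vertical axis) for the 2088 named genes at or above the median signal, 1 probe set a gene. Dashed lines mark 2-fold. The labelled genes salT, ICL, SMR1, RAB16C and HOX24 lie at the upper right, beyond 2-fold in both lines. BURP2 and LAC24, also far higher in nontransgenic leaves, had negative differences in antisense leaves. Of the labelled genes, GRXC10, LAC24 and KSL10 lie beyond 2-fold in opposite directions.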

How the data were processed

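Leaf RNA of 6 groups, 1 array each, was measured on Affymetrix rice arrays with a 3-prime labelling kit, per the labels' protocols. The authors deposited log2 signals per probe set, computed with MAS5 per the submitters' processing notes. Its version and settings are not given in the sources used here, and detection calls were not used here. The 2% trimmed mean of the linear signals was the same on all arrays, 500.1, so the arrays had been brought to a common scale.

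From these, log2(signal + 16) was computed, and the array before treatment was subtracted from the 3 h array. Quantile normalization, equal 75th percentiles, scaling to 42 spike-in probe sets, offsets of 1 and 64 and a filter at the median signal were tried. With 1 array a side there was no test, interval or count of significant genes. The functions were tested on simulated arrays. Gene names came from the platform annotation and RefSeq (the gene matched for all 22436 probe sets with 1 gene), with pandas 2.3.3 and numpy 2.4.6.

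Each gene was represented by its brightest probe set on average, among probe sets with 1 gene. Named genes were the 20 largest higher and 20 largest lower among curated names at or above the median signal, up to 6 members per list, and the 5 largest differences between lines each way. Outside that rule, and after their values were seen, these list members were also named: CESA1, CESA8, CL18, CPK5, Dhn1, EXPA5, EXPA7, EXPA8, EXPB2, GLUA-1, HAK13, HAK20, HSP17.8, Lsi2, NAAT1, OSH1, PORA, PP2C08, PP2C33, PP2C68, RBCS1, SWEET15, TIP4;1, TPP4, XTH8 and rab25. A part of the rule that needed gene descriptions could not be applied, so genes without a name are counted, with 4 examples by identifier. The comparison and the gene lists were chosen with earlier results of these data known, and 24 members matched through an ambiguous synonym were left out. Probe sets ending in _s_at, _x_at or _a_at can bind related transcripts.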

Additional observations from a re-analysis of the deposited data

Results flagged for a closer look

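Of the 220 genes given by the naming rule, 3 stood at least 2-fold in opposite directions in the 2 lines at 3 h, and with 1 array per group the difference was not tested. Among all 2459 named genes, 14 of the 190 higher in nontransgenic leaves were lower in antisense leaves, and 1 of the 97 lower was higher. Over all probe sets the numbers were 441 of 5050 and 110 of 2444, and in the brighter part 80 of 1772 and 23 of 1081. In antisense leaves 7.56% of all probe sets were lower and 5.82% higher. Of the named genes 6.43% were lower and 6.34% higher there, and in the brighter part 5.61% were lower and 6.25% higher. LAC24 was 4.28-fold higher at 3 h than before in nontransgenic leaves and stood at -1.65 (log2) in antisense leaves, 3.75 apart on the log2 scale. The diterpene synthase gene KSL10 stood at 1.04 in nontransgenic and -2.19 in antisense leaves, 3.24 apart, with a 3 h signal of 21.7 in antisense leaves. Its nontransgenic value lay just past the cut of 1, so its place among the 3 rests on a value near that cut. At 20 min LAC24 and KSL10 stood below their signals before treatment in both lines. In nontransgenic leaves LAC24 had 205 before, 48.4 at 20 min and 927 at 3 h, and KSL10 had 197, 34.1 and 423. In antisense leaves LAC24 had 263, 5.22 and 72.7, and KSL10 had 157, 2.89 and 21.7. GRXC10 stood at -2.48 in nontransgenic and 1.80 in antisense leaves, so the nontransgenic difference minus the antisense one was -4.28.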

How the results depend on the processing

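The offset set the number of probe sets past 2-fold. The 5050 higher and 2444 lower probe sets became 11363 and 7027 with an offset of 1, 927 and 505 with an offset of 64, and 1772 and 1081 at or above the median signal. The overlaps with antisense leaves, 882 higher and 565 lower, became 2671 and 2198 with an offset of 1 and 443 and 227 with an offset of 64. Quantile normalization gave 3740 higher and 3526 lower, equal 75th percentiles 4764 and 2564, and spike-in scaling 5573 and 2976. Of 36 list medians, 24 lay above that of all genes, and 22 to 24 did under the 7 alternatives run. Of 116 named genes past 2-fold, 88 stayed so with an offset of 64 and 110 after quantile normalization. No paired analysis was possible because each group was 1 array and the labels carry no replicate numbers, and no array could be left out. Signals below 16 on both arrays carry no readable fold.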

Other observations

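Of 32 diterpenoid and defence genes, 6 were at least 2-fold higher at 3 h than before in nontransgenic leaves and none lower, with a median of 0.23. The chitinase gene Cht2 had a signal of 3534 at 3 h and 1222 before (1.52), and CYP71Z6, of an oxidase of phytoalexin synthesis, had 232 at 3 h and 76.9 before (1.42). In antisense leaves 3 genes of this list were higher and 7 lower, with a median of -0.23. Of 36 jasmonate genes, 4 were higher and 2 lower in nontransgenic leaves, with a median of 0.02. The repressor gene JAZ5 had 191 before, 973 at 20 min and 445 at 3 h, and JAMYB, a MYB factor gene, had 391 before, 1325 at 20 min and 927 at 3 h.

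GLN1;2, of a cytosolic glutamine synthetase, had 1843 at 3 h and 5436 before (-1.55). GLT2, of a glutamate synthase, had 1414 at 3 h and 472 before (1.55). Of 19 nitrogen assimilation genes, 2 were higher and 1 lower, with a median of 0.25. Among 7 lipid transfer and wax genes 1 was higher, the fatty acid elongation gene KCS20, below the median signal, at 43.1 at 3 h and 6.31 before, and the bright lipid transfer protein gene LTPL1 stood at 0.23.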
